A study of Mus musculus with 9 samples.

Results

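The genes described here are 35 markers of macrophages, monocytes and other phagocytes, measured in cells sorted as eosinophils from mouse skeletal muscle. They were chosen by symbol from a list of genes known for these cells, at a time when earlier results of these data were known. All 35 were found among the 54146 genes of the count table, and all 35 were among the 15886 genes with enough counts to be tested. The study sequenced RNA from 9 libraries in 3 groups of 3. The mdx_IL5Tg mice belong to the dystrophin-deficient mdx model of muscular dystrophy and also carry the interleukin-5 transgene. The mdx mice are the same dystrophic model without the transgene, and the IL5Tg mice carry the transgene alone, as their titles give it. Interleukin-5 is the main growth and survival factor of eosinophils. All mice were adult, and the series' design text calls the 3 libraries of each group biological replicates. The cells came from infiltrates of the quadriceps and were sorted live as CD45+, CD11c-, Gr1-, MHCII- and SiglecF+. The strain label reads mdx for all 9 libraries, also for IL5Tg, so the groups follow the titles. The promoter of the transgene is not given in the sources used here, and no library of mice with neither allele was analysed here. Libraries are called by the S number of their column in the count table, S1 to S3 for mdx_IL5Tg, S4 to S6 for mdx and S7 to S9 for IL5Tg.

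Macrophages depend on signalling through the receptor Csf1r and take up dead cells, debris and lipid through scavenger and efferocytic receptors. In injured and dystrophic muscle they clear necrotic fibres and take part in repair. Resident macrophages are known for C1q, the recognition component of the classical complement pathway, and for endocytic receptors such as Mrc1 and Folr2. Macrophages loaded with lipid or debris are known for Apoe, Lpl, Spp1 and Gpnmb, genes tied in mice to the receptor Trem2, while monocytes, their blood precursors, are known for Ly6c2 and Plac8.

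The promoter windows of 5 members are printed to show the upstream sequence of genes on both sides of the comparison of mdx_IL5Tg with mdx, among them a pair of C1q neighbours. C1qb, C1qc, Mrc1 and Gpnmb were lower in mdx_IL5Tg cells than in mdx cells, and Plac8 was higher. Each sequence is the 250 bases before the RefSeq gene start in GRCm38.p6, 5′ to 3′ on the strand of the gene, and capitals mark a match on either strand to GAGGAA, the core bound by the myeloid factor PU.1, or to TGCTGA, the core bound by MAF proteins. The windows lie at chr4:136886201-136886450 on the reverse strand for C1qb, chr4:136892915-136893164 on the reverse strand for C1qc, chr2:14229164-14229413 on the forward strand for Mrc1, chr6:49036268-49036517 on the forward strand for Gpnmb and chr5:100572206-100572455 on the reverse strand for Plac8.
C1qb: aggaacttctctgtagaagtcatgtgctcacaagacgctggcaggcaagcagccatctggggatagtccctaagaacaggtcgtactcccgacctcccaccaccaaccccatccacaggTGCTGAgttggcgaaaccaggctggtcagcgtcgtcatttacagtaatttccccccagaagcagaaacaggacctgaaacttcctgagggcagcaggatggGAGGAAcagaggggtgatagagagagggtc
C1qc: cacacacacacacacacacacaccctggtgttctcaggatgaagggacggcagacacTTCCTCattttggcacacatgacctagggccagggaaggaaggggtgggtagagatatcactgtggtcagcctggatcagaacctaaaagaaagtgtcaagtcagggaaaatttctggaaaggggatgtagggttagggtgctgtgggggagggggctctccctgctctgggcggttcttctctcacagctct
Mrc1: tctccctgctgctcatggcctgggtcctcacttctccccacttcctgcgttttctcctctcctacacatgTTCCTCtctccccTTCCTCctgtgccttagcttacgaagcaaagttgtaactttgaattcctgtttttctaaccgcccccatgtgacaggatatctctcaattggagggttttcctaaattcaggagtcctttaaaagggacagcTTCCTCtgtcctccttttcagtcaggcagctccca
Gpnmb: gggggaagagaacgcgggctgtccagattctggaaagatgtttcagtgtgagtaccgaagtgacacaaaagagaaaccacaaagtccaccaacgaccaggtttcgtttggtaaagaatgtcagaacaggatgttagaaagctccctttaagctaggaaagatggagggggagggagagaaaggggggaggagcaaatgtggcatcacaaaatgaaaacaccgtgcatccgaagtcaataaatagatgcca
Plac8: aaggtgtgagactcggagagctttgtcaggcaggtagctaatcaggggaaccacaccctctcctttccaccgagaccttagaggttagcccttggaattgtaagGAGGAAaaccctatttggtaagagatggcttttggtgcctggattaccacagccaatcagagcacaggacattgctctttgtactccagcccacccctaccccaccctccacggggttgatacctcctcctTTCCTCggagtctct

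RefSeq windows were matched for 29 of the 35 members, all but Csf1r, Maf, C1qa, Lyve1, Lpl and Fabp5. GAGGAA or its reverse complement was in 15 of the 29 windows (51.7%), against 6242 of 27025 windows over all genes (23.1%). TGCTGA was in 6 of the 29 (20.7%), against 15.8% of all windows. The AP-1 motif TGANTCA was in 1 member window, that of Cd68 (3.45%), against 6.85% of all windows, and the E-box CACGTG was in 0 of 29, against 6.04%. Both strands were searched and no matches overlapped. Mrc1 held 3 GAGGAA matches and Plac8 held 2, and the Gpnmb window held none of the 4 motifs.

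Library totals ran between 26752780 and 58368283 estimated counts. Il5 was at 664 to 724 CPM (counts scaled to a common library total after TMM scaling) in mdx_IL5Tg libraries, 0.265 to 0.401 CPM in mdx libraries and 317 to 523 CPM in IL5Tg libraries, so transcripts of the transgenic factor followed the titles. Dmd, the dystrophin gene, had 1.64, 2.21 and 2.74 CPM in mdx_IL5Tg, 6.93, 2.74 and 5.33 CPM in mdx and 6.62, 5.45 and 5.29 CPM in IL5Tg libraries. It did not separate mdx from IL5Tg (log2 fold change -0.21, SE 0.33, edgeR adjusted p = 0.68). In mdx_IL5Tg Dmd was lower than in mdx (log2 fold change -1.19, SE 0.34, edgeR adjusted p = 0.03) and than in IL5Tg (-1.4, SE 0.34, edgeR adjusted p = 0.037). The mdx allele is a point mutation that leaves a transcript, so this level does not check the title for mdx. The 10 eosinophil markers were present in every group, and their summed level was 5076 to 5519 CPM in mdx_IL5Tg, 2106 to 2909 CPM in mdx and 5671 to 15891 CPM in IL5Tg libraries. Prg2, a granule protein gene, alone had 1610 to 6993 CPM of that sum in IL5Tg libraries. By mean, Il5ra had 58.1 CPM in mdx_IL5Tg, 61.1 CPM in mdx and 60.1 CPM in IL5Tg. In the same order Ccr3 had 1372, 1017 and 967 CPM, and Siglecf had 520, 157 and 353 CPM. The mdx library S5 stood apart in its mitochondrial share, 0.383% of counts, against 1.28% and 1.55% in the other mdx libraries. In bulk RNA, fewer cells of a type and less RNA per cell cannot be told apart.

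Most member genes were highest in cells from mdx muscle. In mdx_IL5Tg cells against mdx cells, 24 of the 35 members fell and 4 rose (edgeR quasi-likelihood test over all genes, adjusted p under 0.05). Over all tested genes 11.5% were lower and 10.1% were higher. The median log2 fold change of the members was -1.94, against -0.13 over all tested genes. The 24 genes that fell kept between 6.04% and 60.9% of the mdx mean, with a median of 22.5%. The groups did not overlap, and mdx_IL5Tg was the lower, for 23 members, where 23.2% of all genes were so placed, and for 6 members it was the higher, against 18.9% of all genes. Many calls were not kept in other fits, where fewer of all genes were called lower as well. Without mdx S4, 8 members were called lower, against 3.73% of all genes. Without mdx_IL5Tg S1 it was 9, against 2.63%, and without a filter on low counts 14, against 7.3%. The members' median was -1.57 without mdx S4, -1.76 without mdx_IL5Tg S1 and -1.96 without the filter.

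In mdx cells against IL5Tg cells, 23 members rose and 2 fell, against 11.8% higher and 8.96% lower over all tested genes. Their median log2 fold change was 2.38, against 0.01 over all genes. Groups did not overlap, with mdx the higher, for 26 members and, with mdx the lower, for 2, against 22.2% and 19.7% of all genes. In mdx_IL5Tg cells against IL5Tg cells, 9 members rose and 1 fell, against 4.35% higher and 2.87% lower over all genes, and the median was 0.81, against -0.05. Without mdx_IL5Tg S1 only 1 member rose in this last comparison, against 0.662% of all genes, without mdx_IL5Tg S2 or IL5Tg S7 it was 2, against 1.31% and 1.21%, without IL5Tg S8 it was 3, against 1.78%, and without IL5Tg S9 it was 5, against 1.62%. Here mdx_IL5Tg lay wholly above IL5Tg for 16 members and wholly below for 1, against 19.4% and 16.4% of all genes. These comparisons share libraries pairwise, so their directions are not independent. By group mean, 23 members ran in the order mdx, mdx_IL5Tg, IL5Tg from high to low. A further 5 were lowest in mdx_IL5Tg (Lyve1, Timd4, Mertk, Clec7a and Cd36), and 4 were highest in mdx_IL5Tg with mdx the lowest (Cst7, Cd63, Lgals3 and Plac8). Syk and Cd9 ran mdx_IL5Tg, mdx, IL5Tg, and Ly6c2 ran IL5Tg, mdx_IL5Tg, mdx.

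**Figure D1:**
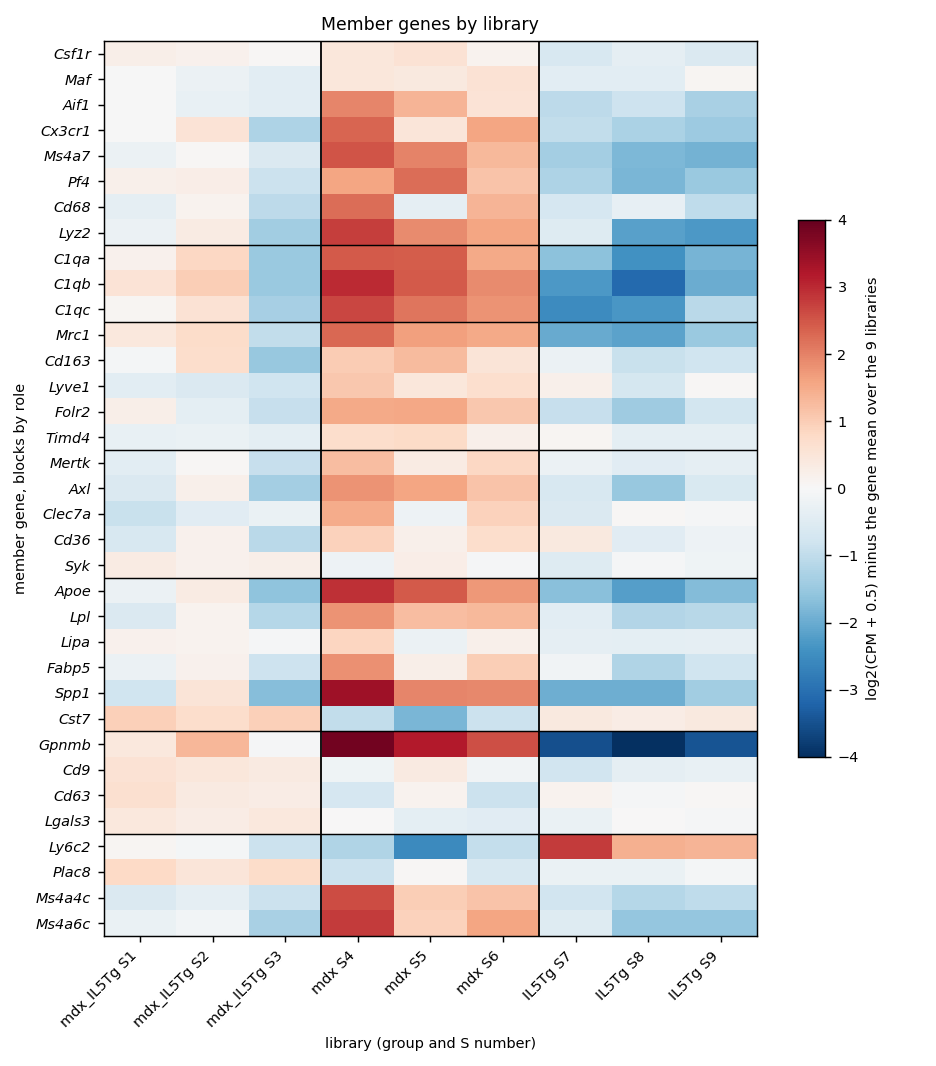
Level of each of the 35 members (rows, grouped by role) in each of the 9 libraries (columns), as log2(CPM + 0.5) minus the gene's mean over the libraries, with colours capped at a difference of 4. Most rows are high in the mdx libraries S4 to S6 and low in the IL5Tg libraries S7 to S9, while Cst7, Cd63, Lgals3 and Plac8 are lowest by mean in mdx.

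Markers of several other cell types moved in the same comparisons, and their part in the results was not tested. Over all tested genes, 11.5% were lower and 10.1% higher in mdx_IL5Tg against mdx. The shares were 2.87% and 4.35% in mdx_IL5Tg against IL5Tg, and 8.96% and 11.8% in mdx against IL5Tg. Of 6 fibroblast markers, 5 were lower in mdx_IL5Tg than in mdx and 5 were higher in mdx than in IL5Tg, with summed levels of 714 to 2872 CPM in mdx_IL5Tg, 4218 to 10625 CPM in mdx and 928 to 2190 CPM in IL5Tg. Of 8 muscle fibre markers, 6 were lower in mdx_IL5Tg than in mdx, 4 were higher in mdx_IL5Tg than in IL5Tg and 8 were higher in mdx than in IL5Tg. Their sums were 18.3 to 23.2 CPM in mdx_IL5Tg, 30.5 to 63.5 CPM in mdx and 7.29 to 10.9 CPM in IL5Tg. Of 8 tested dendritic cell and MHC class II genes, 2 were lower in mdx_IL5Tg than in mdx, 4 were higher in mdx_IL5Tg than in IL5Tg and 5 were higher in mdx than in IL5Tg. Their sums were 31.7 to 138 CPM in mdx_IL5Tg, 173 to 262 CPM in mdx and 11.7 to 27.0 CPM in IL5Tg, although the sort excluded MHCII+ cells. Muscle stem cell and myoblast markers fell in mdx_IL5Tg against mdx for 5 of 6. In mdx against IL5Tg 5 rose, and in mdx_IL5Tg against IL5Tg 1 rose (Cdh15). Their sums were 6.84 to 16.5 CPM in mdx_IL5Tg, 32.8 to 46.3 CPM in mdx and 4.32 to 7.48 CPM in IL5Tg. Of 6 tested mast cell and basophil markers, 3 fell in mdx_IL5Tg against mdx, with sums of 20.4 to 22.3 CPM in mdx_IL5Tg, 29.3 to 49.7 CPM in mdx and 14.4 to 27.2 CPM in IL5Tg. Of the 10 eosinophil markers, 2 rose in mdx_IL5Tg against mdx (Alox15 and Siglecf). In mdx against IL5Tg 7 fell (Prg2, Prg3, Epx, Ear1, Ear2, Ear6 and Siglecf), and 3 did not pass (Il5ra, Ccr3 and Alox15). In mdx_IL5Tg against mdx, 1 of 6 endothelial markers (16.7%) and 1 of 9 tested neutrophil markers (11.1%) fell. The neutrophil share was near the 11.5% of all genes, and the endothelial share rests on 1 gene. In that comparison 1 of 3 tested T, B and NK cell markers rose, and 0 of 5 erythroid and 0 of 6 proliferation markers passed. Of the 6 proliferation markers, 3 fell in mdx_IL5Tg against IL5Tg and 2 fell in mdx against IL5Tg, with sums of 31.1 to 46.2 CPM in mdx_IL5Tg, 35.1 to 83.8 CPM in mdx and 84.2 to 399 CPM in IL5Tg. No marker on these lists was at 0 in all 9 libraries.

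**Figure D2:**
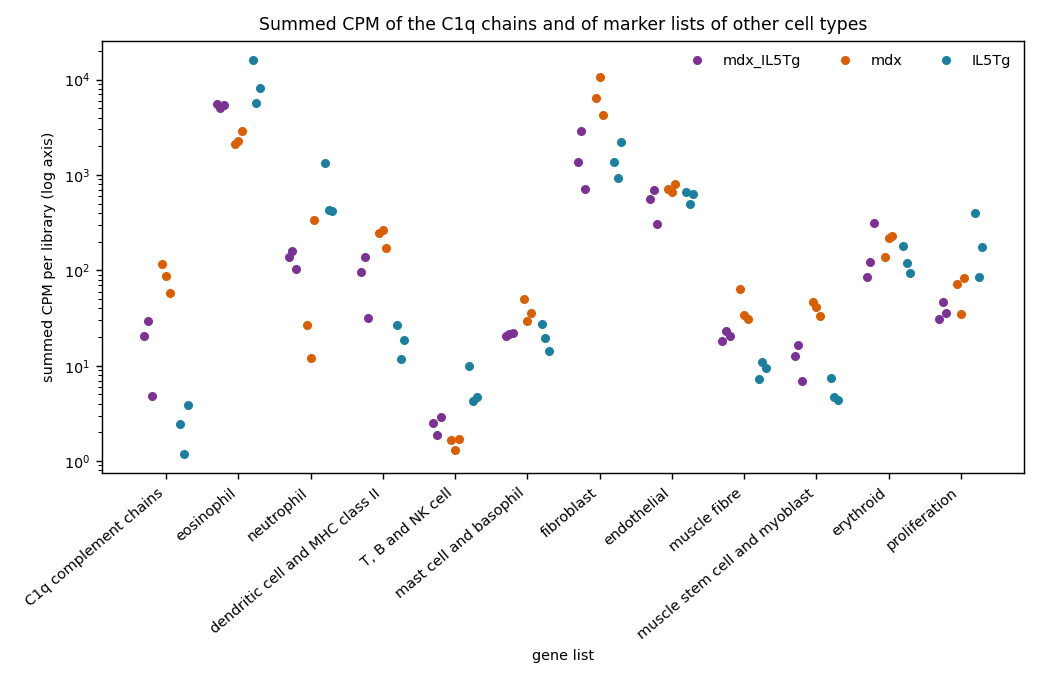
Summed CPM of the C1q chains and of each marker list in each library (log axis), with the libraries of each group as points in the order mdx_IL5Tg, mdx, IL5Tg. The fibroblast, muscle fibre and MHC class II sums are highest in mdx libraries, and the eosinophil sum is lowest there.

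The C1q chains were highest in mdx cells and by mean lowest in IL5Tg cells. C1qa, C1qb and C1qc encode the 3 chains of C1q and lie side by side on the reverse strand of chromosome 4, between 136880129 and 136898803 in GRCm38. C1qb had 11.2, 15.5 and 2.37 CPM in mdx_IL5Tg libraries, 63.2, 43.0 and 29.4 CPM in mdx libraries, and 1.12, 0.422 and 1.53 CPM in IL5Tg libraries. No group overlapped another, every mdx library was the highest, and mdx_IL5Tg S3 lay closest to IL5Tg. C1qb averaged 9.69 ± 6.69 CPM in mdx_IL5Tg and 45.2 ± 17.0 CPM in mdx (SD, n = 3 each), a log2 fold change of -2.22 with SE 0.59 and an edgeR adjusted p = 0.026. Against IL5Tg, C1qb rose in mdx_IL5Tg by 3.25 on the log2 scale (SE 0.67, edgeR adjusted p = 0.027).

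C1qa and C1qc behaved alike. C1qa had 5.21, 8.48 and 1.305 CPM in mdx_IL5Tg, 27.5, 26.8 and 14.1 CPM in mdx, and 1.12, 0.454 and 0.894 CPM in IL5Tg libraries. C1qc had 3.87, 5.74 and 1.15 CPM in mdx_IL5Tg, 25.8, 17.7 and 13.8 CPM in mdx, and 0.224, 0.324 and 1.45 CPM in IL5Tg libraries. The mdx libraries again stood above all others, and for C1qc mdx_IL5Tg S3 fell within the IL5Tg range. C1qa fell by 2.19 in mdx_IL5Tg against mdx (log2 scale, SE 0.55, edgeR adjusted p = 0.018) and C1qc fell by 2.41 (SE 0.62, edgeR adjusted p = 0.02). Against IL5Tg, C1qa rose in mdx_IL5Tg by 2.60 (SE 0.60, edgeR adjusted p = 0.034), and C1qc had a log2 fold change of 2.46 that missed the threshold (SE 0.69, edgeR adjusted p = 0.055). All 3 chains rose in mdx against IL5Tg, by 4.79, 5.47 and 4.87 on the log2 scale for C1qa, C1qb and C1qc (edgeR adjusted p = 0.00069, 0.00081 and 0.0014). Without mdx_IL5Tg S1, without mdx S4 or without a filter on low counts, none of the 3 passed in mdx_IL5Tg against mdx. Over all alternatives that ended a call there, the edgeR adjusted p was between 0.06 and 0.12. Against IL5Tg, neither C1qa nor C1qb passed without mdx_IL5Tg S1 or S2, without IL5Tg S7 or S8, with limma voom or without a filter. C1qa also missed without IL5Tg S9. Without IL5Tg S7 and mdx S5 together, C1qa and C1qb passed in neither of these comparisons.

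The proportions among the chains were similar in both dystrophic groups. C1qb made up 55.2%, 52.2% and 49.2% of the C1q counts in mdx_IL5Tg libraries, on 1027, 1181 and 185 counts, and 54.3%, 49.2% and 51.3% in mdx libraries, on 5566, 2615 and 2374 counts. In IL5Tg libraries it made up 45.5%, 35.1% and 39.4%, on only 77, 37 and 104 counts. C1q transcripts were thus fewer in mdx_IL5Tg with little change of composition, and too few in IL5Tg for a close comparison.

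**Figure D3:**
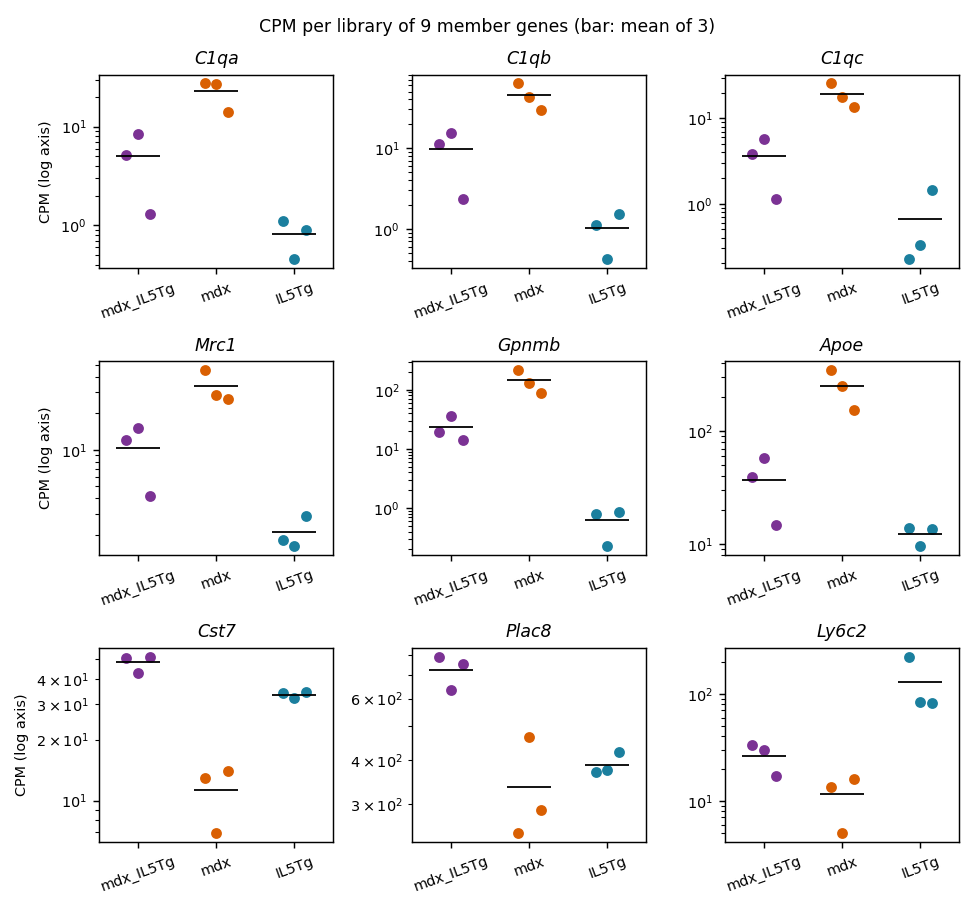
CPM in each library (points, log axis) and group means of 3 libraries (bars) for 9 members, with groups in the order mdx_IL5Tg, mdx, IL5Tg. C1qb, Mrc1, Apoe and Gpnmb are highest in mdx and lowest in IL5Tg, while Cst7 and Plac8 are highest in mdx_IL5Tg.

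General macrophage genes were higher in mdx cells, with the exception that Csf1r differed little between the dystrophic groups. All 8 rose in mdx against IL5Tg, and 6 of the 8 fell in mdx_IL5Tg against mdx. Csf1r, the receptor for macrophage colony-stimulating factor, had 348, 332 and 306 CPM in mdx_IL5Tg, 411, 442 and 331 CPM in mdx, and 189, 229.8 and 198 CPM in IL5Tg libraries. The dystrophic groups overlapped, and both lay above IL5Tg. Csf1r differed by -0.26 on the log2 scale in mdx_IL5Tg against mdx (SE 0.14, edgeR adjusted p = 0.21), and it rose by 0.68 in mdx_IL5Tg against IL5Tg (SE 0.14, edgeR adjusted p = 0.028). Scaled by library totals alone, the difference from mdx passed (edgeR adjusted p = 0.0098) and the one from IL5Tg did not. The difference from IL5Tg also missed the threshold without IL5Tg S7 or S9 or without mdx_IL5Tg S1 or S2. Csf1r shares 873 exonic bases with Hmgxb3 on the opposite strand, and whether counting used strand is not given in the sources used here.

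Ms4a7 and Pf4 were at low levels throughout. Ms4a7, a membrane protein of the macrophage lineage, had 1.07, 1.41 and 0.731 CPM in mdx_IL5Tg, 10.1, 6.82 and 4.07 CPM in mdx, and 0.224, 0.0324 and 0 CPM in IL5Tg libraries. The 3 groups were fully separate, and the IL5Tg value rested on 8 counts in all. Ms4a7 fell by 2.71 in mdx_IL5Tg against mdx (SE 0.54, edgeR adjusted p = 0.0065) and rose by 3.54 against IL5Tg (SE 0.73, edgeR adjusted p = 0.025). Leaving out IL5Tg S7 put the second value at 5.75. Pf4, the chemokine platelet factor 4, which macrophages as well as megakaryocytes express, had 1.84, 1.91 and 0.600 CPM in mdx_IL5Tg, 5.57, 9.06 and 3.93 CPM in mdx, and 0.352, 0.0649 and 0.224 CPM in IL5Tg libraries. Its groups were also separate, with a log2 fold change of -2.08 against mdx (SE 0.51, edgeR adjusted p = 0.017) and 2.75 against IL5Tg (SE 0.62, edgeR adjusted p = 0.031). The rise of both genes against IL5Tg did not pass with limma voom, nor without mdx_IL5Tg S1 or S2 or without IL5Tg S8 or S9 (adjusted p 0.056 to 0.13).

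Lyz2, Aif1 and Maf followed the same order by mean. Lyz2, lysozyme of macrophages and granulocytes, had 86.3, 128 and 38.7 CPM in mdx_IL5Tg, 695, 378 and 305 CPM in mdx, and 71.1, 22.0 and 20.1 CPM in IL5Tg libraries. It fell by 2.45 in mdx_IL5Tg against mdx (SE 0.60, edgeR adjusted p = 0.021), and its mdx_IL5Tg and IL5Tg values overlapped. Aif1, the actin-binding protein IBA1 used as a macrophage marker, had 0.711, 0.503 and 0.418 CPM in mdx_IL5Tg, 4.23, 2.64 and 1.301 CPM in mdx, and 0.0959, 0.195 and 0 CPM in IL5Tg libraries, the last on 9 counts in all. Aif1 fell by 2.31 in mdx_IL5Tg against mdx (SE 0.59, edgeR adjusted p = 0.02). Maf, a transcription factor of macrophage differentiation, had 12.2, 10.6 and 9.16 CPM in mdx_IL5Tg, 17.0, 16.6 and 18.9 CPM in mdx, and 9.05, 9.18 and 13.2 CPM in IL5Tg libraries. Maf fell by 0.72 in mdx_IL5Tg against mdx (SE 0.20, edgeR adjusted p = 0.027), while mdx_IL5Tg and IL5Tg values ran through each other. Leaving out mdx_IL5Tg S1 or mdx S4 ended the call for Lyz2, Aif1 and Maf in that comparison.

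Cd68 and Cx3cr1 were uneven among the mdx libraries. Cd68, a lysosomal glycoprotein of macrophages, had 5.79, 8.33 and 3.42 CPM in mdx_IL5Tg, 37.7, 5.82 and 20.1 CPM in mdx, and 4.57, 5.94 and 3.43 CPM in IL5Tg libraries. The mdx library S5 lay inside the ranges of both other groups. Cd68 fell by 1.86 in mdx_IL5Tg against mdx (SE 0.55, edgeR adjusted p = 0.035), and 9 alternatives ended this call, among them limma voom and no filter. Without mdx S4 its value was -1.06. Cx3cr1, the fractalkine receptor of monocytes and macrophages, had 0.829, 1.46 and 0.0783 CPM in mdx_IL5Tg, 6.23, 1.40 and 3.59 CPM in mdx, and 0.192, 0.0649 and 0 CPM in IL5Tg libraries. It rose in mdx against IL5Tg by 5.35 (SE 1.07, edgeR adjusted p = 0.0064), and its value of -2.24 in mdx_IL5Tg against mdx did not pass (SE 0.83, edgeR adjusted p = 0.075), although it did with DESeq2, with limma voom and without mdx S5.

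Receptors of tissue-resident macrophages were lower in mdx_IL5Tg cells for 4 of 5 members. Mrc1, the mannose receptor, had 11.9, 15.2 and 4.18 CPM in mdx_IL5Tg, 45.1, 28.4 and 26.3 CPM in mdx, and 1.82, 1.62 and 2.87 CPM in IL5Tg libraries. Its 3 groups did not overlap. Mrc1 fell by 1.67 in mdx_IL5Tg against mdx (SE 0.41, edgeR adjusted p = 0.017) and rose by 2.31 against IL5Tg (SE 0.44, edgeR adjusted p = 0.019), and neither call held without mdx_IL5Tg S1. Folr2, a folate receptor, had 1.60, 0.856 and 0.444 CPM in mdx_IL5Tg, 4.62, 4.65 and 3.25 CPM in mdx, and 0.448, 0.162 and 0.559 CPM in IL5Tg libraries. It fell by 2.09 in mdx_IL5Tg against mdx (SE 0.49, edgeR adjusted p = 0.014), and the 2 transgenic groups overlapped. Folr2 shares 975 of its 1546 exonic bases with Gm10602 on the opposite strand. Its counts may include reads of that gene if counting ignored strand.

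Lyve1, Timd4 and Cd163 were at low levels. Lyve1, a hyaluronan receptor also found on lymphatic endothelium, had 0.592, 0.478 and 0.339 CPM in mdx_IL5Tg, 2.55, 1.51 and 1.83 CPM in mdx, and 1.18, 0.389 and 1.01 CPM in IL5Tg libraries. It fell by 2.05 in mdx_IL5Tg against mdx (SE 0.46, edgeR adjusted p = 0.011), and its mean was lower in mdx_IL5Tg than in IL5Tg without passing the test. Timd4, a phosphatidylserine receptor, had 4 counts in all in mdx_IL5Tg libraries, 58 in mdx and 6 in IL5Tg, the last all in S7. Its fall in mdx_IL5Tg against mdx (log2 fold change -3.87, SE 1.11, edgeR adjusted p = 0.031) did not pass once any library of those groups was left out. Cd163, the haemoglobin scavenger receptor, had 1.40, 2.74 and 0.209 CPM in mdx_IL5Tg, 3.60, 4.31 and 2.39 CPM in mdx, and 1.22, 0.584 and 0.671 CPM in IL5Tg libraries. It passed in no comparison, with log2 fold changes of -1.24 against mdx (SE 0.65, edgeR adjusted p = 0.19) and 0.81 against IL5Tg (SE 0.68, edgeR adjusted p = 0.47) for mdx_IL5Tg. Folr2 and Lyve1 did not pass in mdx_IL5Tg against mdx without mdx S4 (edgeR adjusted p = 0.05 and 0.054).

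Among receptors for uptake, 4 of 5 fell in mdx_IL5Tg against mdx, and none of the 5 passed in mdx_IL5Tg against IL5Tg. Axl, a TAM receptor tyrosine kinase that binds apoptotic cells through Gas6, had 9.60, 16.6 and 5.30 CPM in mdx_IL5Tg, 51.1, 44.3 and 32.6 CPM in mdx, and 9.05, 4.77 and 9.28 CPM in IL5Tg libraries. All mdx libraries were above the rest, and the transgenic groups overlapped. Axl fell by 2.02 in mdx_IL5Tg against mdx (SE 0.39, edgeR adjusted p = 0.0054), a call that held under every alternative run, and its value against IL5Tg was 0.45 (SE 0.38, edgeR adjusted p = 0.47). Mertk, the related TAM receptor, had 2.88, 4.15 and 1.88 CPM in mdx_IL5Tg, 10.2, 5.15 and 7.57 CPM in mdx, and 3.36, 2.85 and 3.02 CPM in IL5Tg libraries. It fell by 1.37 in mdx_IL5Tg against mdx (SE 0.33, edgeR adjusted p = 0.016), and mdx_IL5Tg values lay on both sides of the IL5Tg values.

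Clec7a and Cd36 also fell. Clec7a, the beta-glucan receptor Dectin-1, had 10.8, 14.9 and 17.0 CPM in mdx_IL5Tg, 59.0, 17.9 and 39.96 CPM in mdx, and 13.7, 21.2 and 20.1 CPM in IL5Tg libraries. The mdx library S5 lay close to the transgenic groups. Clec7a fell by 1.46 in mdx_IL5Tg against mdx (SE 0.36, edgeR adjusted p = 0.018), and by 0.94 without a call when mdx S4 was left out. Cd36, a scavenger receptor for oxidised lipids, had 71.2, 126 and 52.4 CPM in mdx_IL5Tg, 212, 128 and 180.1 CPM in mdx, and 145, 82.1 and 96.4 CPM in IL5Tg libraries. It fell by 1.06 in mdx_IL5Tg against mdx (SE 0.32, edgeR adjusted p = 0.038), a call that 8 alternatives ended. The kinase Syk, which signals downstream of such receptors and in most myeloid cells, was abundant throughout, at 2316, 2055 and 2155 CPM in mdx_IL5Tg, 1613, 2199 and 1801 CPM in mdx, and 1278, 1776 and 1632 CPM in IL5Tg libraries. It passed in no comparison, with log2 fold changes of 0.22 against mdx (SE 0.17, edgeR adjusted p = 0.38) and 0.48 against IL5Tg (SE 0.17, edgeR adjusted p = 0.098) for mdx_IL5Tg. Leaving out mdx_IL5Tg S1 or mdx S4 also ended the call for Mertk, Clec7a and Cd36 in mdx_IL5Tg against mdx.

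The lipid genes split in direction. Apoe, the main apolipoprotein made by macrophages, had 38.9, 57.6 and 14.6 CPM in mdx_IL5Tg, 348, 251 and 153 CPM in mdx, and 13.9, 9.54 and 13.5 CPM in IL5Tg libraries. Every mdx library was the highest, and every mdx_IL5Tg library was above every IL5Tg library. Apoe fell by 2.76 in mdx_IL5Tg against mdx (SE 0.45, edgeR adjusted p = 0.0029) and rose by 4.35 in mdx against IL5Tg (SE 0.49, edgeR adjusted p = 0.00031), and its value of 1.59 in mdx_IL5Tg against IL5Tg missed the threshold (SE 0.44, edgeR adjusted p = 0.055) but passed with DESeq2 and without mdx_IL5Tg S3. Spp1, the secreted glycoprotein osteopontin, had 22.8, 57.7 and 11.8 CPM in mdx_IL5Tg, 425, 156 and 153 CPM in mdx, and 9.98, 9.86 and 14.9 CPM in IL5Tg libraries. It fell by 2.99 in mdx_IL5Tg against mdx (SE 0.61, edgeR adjusted p = 0.011), or to 12.6% of the mdx mean, and the transgenic groups overlapped. Without mdx_IL5Tg S1 the Spp1 call was lost (edgeR adjusted p = 0.054).

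Lpl and Fabp5 fell too, and Lipa did not pass. Lpl, lipoprotein lipase, had 14.97, 24.97 and 10.1 CPM in mdx_IL5Tg, 81.4, 53.9 and 56.8 CPM in mdx, and 16.9, 9.79 and 10.2 CPM in IL5Tg libraries, with a fall of 1.94 in mdx_IL5Tg against mdx (SE 0.33, edgeR adjusted p = 0.0031). Fabp5, a fatty acid binding protein, had 8.27, 11.1 and 5.30 CPM in mdx_IL5Tg, 36.4, 11.8 and 20.2 CPM in mdx, and 8.96, 3.99 and 5.51 CPM in IL5Tg libraries. Fabp5 fell by 1.47 in mdx_IL5Tg against mdx (SE 0.43, edgeR adjusted p = 0.033), and by 0.88 without a call when mdx S4 was left out. Lipa, lysosomal acid lipase, had 50.4, 49.6 and 43.6 CPM in mdx_IL5Tg, 80.6, 37.9 and 51.4 CPM in mdx, and 34.3, 34.1 and 34.7 CPM in IL5Tg libraries. It rose in mdx against IL5Tg by 0.72 (SE 0.23, edgeR adjusted p = 0.044), a call that held in only 6 of 16 alternatives (leaving out IL5Tg S7 and mdx S5 together not counted) and was lost with RLE scaling, with limma voom and without any 1 IL5Tg library, and its value was 0.35 without mdx S4.

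Cst7 went the other way. Cst7 encodes cystatin F, an inhibitor of lysosomal cysteine proteases found in several leukocyte types and, in mice, in lipid-laden macrophages and microglia. It had 50.9, 42.9 and 51.2 CPM in mdx_IL5Tg, 12.9, 6.92 and 14.1 CPM in mdx, and 34.0, 32.0 and 34.3 CPM in IL5Tg libraries. The 3 groups were separate, with mdx the lowest. Cst7 averaged 48.3 ± 4.71 CPM in mdx_IL5Tg and 11.3 ± 3.83 CPM in mdx (SD, n = 3 each), a rise of 2.09 on the log2 scale (SE 0.23, edgeR adjusted p = 0.00024), and it fell by 1.56 in mdx against IL5Tg (SE 0.23, edgeR adjusted p = 0.0012). Both calls held under every alternative run.

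Gpnmb had the largest log2 fold change of the members. Gpnmb is a transmembrane glycoprotein of lysosomes and melanosomes that macrophages make on lysosomal or lipid load. It had 19.1, 36.5 and 13.9 CPM in mdx_IL5Tg, 214, 132 and 88.2 CPM in mdx, and 0.800, 0.227 and 0.857 CPM in IL5Tg libraries. The groups were separate in every comparison, and the IL5Tg level rested on 55 counts in all. Gpnmb averaged 23.2 ± 11.8 CPM in mdx_IL5Tg, 145 ± 64.0 CPM in mdx and 0.628 ± 0.348 CPM in IL5Tg (SD, n = 3 each). It fell by 2.64 in mdx_IL5Tg against mdx (SE 0.43, edgeR adjusted p = 0.0027), and it rose by 5.21 in mdx_IL5Tg against IL5Tg (SE 0.55, edgeR adjusted p = 0.0017) and by 7.86 in mdx against IL5Tg (SE 0.59, edgeR adjusted p = 1.9e-05). It was the only member called in mdx_IL5Tg against IL5Tg under every alternative run. Relative to the C1q sum, Gpnmb was 0.944, 1.23 and 2.89 in mdx_IL5Tg libraries, 1.84, 1.51 and 1.54 in mdx libraries and 0.325, 0.189 and 0.221 in IL5Tg libraries. The ratio was lowest in IL5Tg, on only 25, 7 and 23 Gpnmb counts and 77, 37 and 104 C1q counts there. The same ratio was instead highest in IL5Tg for Cd68 (1.86, 4.95 and 0.885) and Apoe (5.64, 7.95 and 3.48). For Lyz2 and Ms4a7 it overlapped between IL5Tg and the other groups.

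The remaining lysosomal and membrane genes were abundant in all groups. Cd9, a tetraspanin widely expressed on leukocytes, had 1447, 1340.1 and 1259 CPM in mdx_IL5Tg, 859, 1247 and 890.1 CPM in mdx, and 571, 765 and 793 CPM in IL5Tg libraries. It rose by 0.93 in mdx_IL5Tg against IL5Tg (SE 0.18, edgeR adjusted p = 0.022), a call lost without IL5Tg S7 or without mdx_IL5Tg S1 or S2, and its value of 0.43 against mdx did not pass (SE 0.18, edgeR adjusted p = 0.11), although every mdx_IL5Tg library was the higher. Cd63, a tetraspanin of late endosomes and granules, had 528, 441 and 418 CPM in mdx_IL5Tg, 213, 374 and 188 CPM in mdx, and 377, 328 and 351 CPM in IL5Tg libraries. It rose by 0.84 in mdx_IL5Tg against mdx (SE 0.23, edgeR adjusted p = 0.026), with mdx S5 the nearest to the mdx_IL5Tg libraries. Lgals3, the lectin galectin-3, had 534, 493 and 534 CPM in mdx_IL5Tg, 406, 301 and 291 CPM in mdx, and 329.5, 403 and 384 CPM in IL5Tg libraries, and rose by 0.64 in mdx_IL5Tg against mdx (SE 0.15, edgeR adjusted p = 0.015). The Cd63 call was also lost without mdx S4, mdx S6 or mdx_IL5Tg S1. Scaled by library totals alone, Cd63 and Lgals3 were at 0.54 and 0.32 in that comparison and did not pass (edgeR adjusted p up to 0.14).

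The 4 monocyte genes did not move together. Plac8, a small protein of monocytes and granulocytes, had 789, 634 and 755 CPM in mdx_IL5Tg, 248, 468 and 289 CPM in mdx, and 370.1, 376 and 422 CPM in IL5Tg libraries. The mdx_IL5Tg libraries were above all others, and mdx and IL5Tg overlapped. Plac8 rose by 1.12 in mdx_IL5Tg against mdx (SE 0.22, edgeR adjusted p = 0.0057), which held under every alternative run, and by 0.90 against IL5Tg (SE 0.21, edgeR adjusted p = 0.036), which did not hold without any one of 5 libraries of those groups. Ly6c2, the Ly6C antigen of classical monocytes, one of the proteins the Gr1 antibody binds, had 33.0, 29.7 and 16.9 CPM in mdx_IL5Tg, 13.5, 5.02 and 16.0 CPM in mdx, and 221, 84.2 and 81.7 CPM in IL5Tg libraries. All groups were separate, with IL5Tg the highest. Ly6c2 fell by 2.28 in mdx_IL5Tg against IL5Tg (SE 0.49, edgeR adjusted p = 0.031), which did not hold without filtering, without IL5Tg S7 or mdx S4, or without any 1 mdx_IL5Tg library, and by 3.48 in mdx against IL5Tg (SE 0.52, edgeR adjusted p = 0.0017), which held throughout. Its estimated counts were not whole in any of the 9 libraries, so part of its reads were shared with related genes, and its level is uncertain to that extent. Neutrophil markers include Ly6g, another Gr1 target. They summed to 104 to 158 CPM in mdx_IL5Tg, 11.9 to 335 CPM in mdx and 417 to 1333 CPM in IL5Tg libraries. Ly6g itself averaged only 0.585 CPM in mdx_IL5Tg, 0.112 CPM in mdx and 1.20 CPM in IL5Tg, so the sums say little about Gr1 targets. The part of these markers in the Ly6c2 result was not tested.

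Ms4a4c and Ms4a6c lie within the Ms4a gene cluster of chromosome 19, as does Ms4a7. Ms4a4c had 0.434, 0.579 and 0.261 CPM in mdx_IL5Tg, 7.89, 2.24 and 2.53 CPM in mdx, and 0.320, 0.130 and 0.186 CPM in IL5Tg libraries. Ms4a6c had 1.501, 1.76 and 0.496 CPM in mdx_IL5Tg, 16.5, 4.08 and 6.77 CPM in mdx, and 1.18, 0.324 and 0.335 CPM in IL5Tg libraries. For both genes mdx S4 was far above the other mdx libraries, and the transgenic groups overlapped. Ms4a4c fell by 3.31 in mdx_IL5Tg against mdx (SE 0.57, edgeR adjusted p = 0.0033), which held throughout, and Ms4a6c fell by 2.86 (SE 0.65, edgeR adjusted p = 0.012), which did not hold without mdx S4. Ms4a6c shares 1088 exonic bases with BE692007 on the opposite strand, so its counts may include reads of that gene if counting ignored strand. Its estimated counts were whole in every library.

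**Figure D4:**
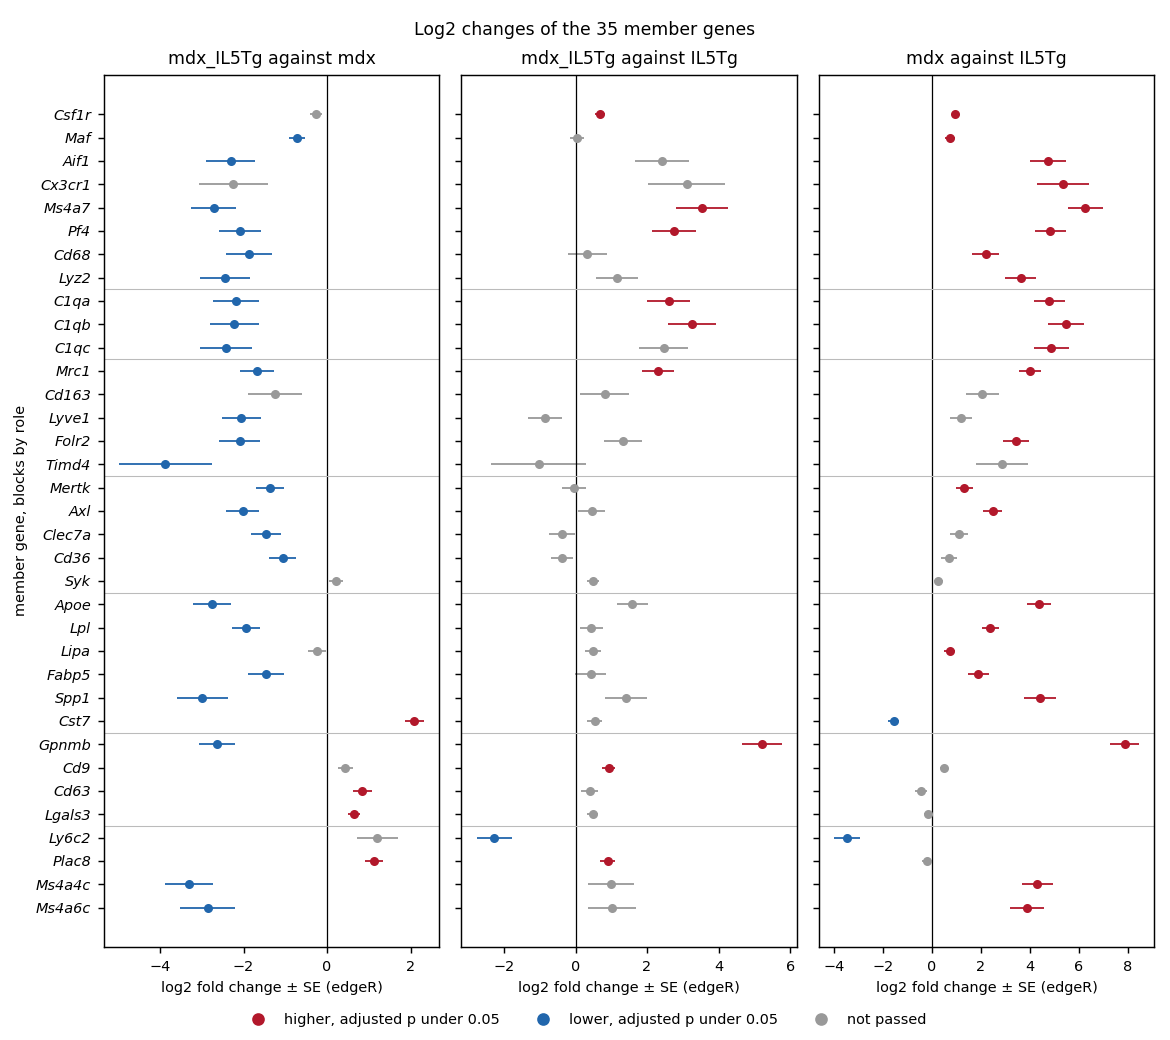
Log2 fold change of each member (points) with a standard error derived from the edgeR test (bars). Panels show mdx_IL5Tg against mdx, mdx_IL5Tg against IL5Tg and mdx against IL5Tg. Red points are higher and blue points lower at an adjusted p under 0.05, and grey points did not pass. Most members lie left of 0 in the first comparison and right of 0 in the last, Gpnmb reaches 7.86 in the last, and Cst7 lies at 2.09 in the first and -1.56 in the last.

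The comparison of mdx with IL5Tg held most of the largest log2 fold changes. Among general macrophage genes, Ms4a7 rose by 6.25, Pf4 by 4.83, Aif1 by 4.73 and Lyz2 by 3.61 (edgeR adjusted p = 0.00029, 0.00062, 0.0016 and 0.0048). Csf1r, Maf and Cd68 rose less, by 0.94, 0.74 and 2.19 (edgeR adjusted p = 0.0016, 0.024 and 0.02), and the calls of Maf and Cd68 were lost without mdx S4 and under several other alternatives. Of the resident receptors, Mrc1 rose by 3.99 and Folr2 by 3.42 (edgeR adjusted p = 0.00031 and 0.0018), while Lyve1, Timd4 and Cd163 did not pass. Axl rose by 2.47 and Mertk by 1.32 (edgeR adjusted p = 0.0019 and 0.019), the second not without mdx S4, and Clec7a, Cd36 and Syk did not pass. Among lipid genes, Spp1 rose by 4.40, Lpl by 2.38 and Fabp5 by 1.89 (edgeR adjusted p = 0.0023, 0.00098 and 0.013), the last not without IL5Tg S8 or S9 or without a filter. Ms4a4c and Ms4a6c rose by 4.29 and 3.88 (edgeR adjusted p = 0.0012 and 0.0037), and Plac8, Cd9, Cd63 and Lgals3 did not pass.

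Members differed greatly in level. Per kilobase of exon, the mean CPM was highest for Cd9 in each group, at 660 in mdx_IL5Tg, 489 in mdx and 347 in IL5Tg. In mdx_IL5Tg and in IL5Tg the next were Plac8, Lgals3, Syk and Cd63, which are not particular to macrophages. In mdx, Lyz2 came second at 349 CPM per kilobase, against 64.1 in mdx_IL5Tg and 28.6 in IL5Tg, and Spp1 and Apoe stood at 148 and 117 CPM per kilobase in mdx. Csf1r stood at 57.0 CPM per kilobase in mdx_IL5Tg, 68.4 in mdx and 35.6 in IL5Tg, whereas C1qb stood at 8.91, 41.5 and 0.940 in the same groups. Csf1r thus kept 83.3% of its mdx mean in mdx_IL5Tg, and C1qb 21.4%.

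Members also differed in how closely they followed C1q across the 9 libraries, as a description that rests on the group means as much as on variation within groups. On log2(CPM + 0.5), Pearson's r with the summed C1q level was at least 0.9 for 12 of the 32 other members and below 0 for 5. It was 0.99 for Mrc1, 0.98 for Apoe and 0.97 for Pf4 and Gpnmb. It was 0.48 for Clec7a, 0.59 for Cd36, 0.34 for Syk and 0.45 for Cd9. Ly6c2 and Cst7 ran opposite, at -0.81 and -0.67. Within mdx_IL5Tg, library S3 was the lowest of its group for 30 of the 35 members and S2 the highest for 21. Within mdx, S4 was the highest for 23. No share over all genes was computed for these counts or for r. S3 was also the lowest and S2 the highest of mdx_IL5Tg for the fibroblast sum (714 and 2872 CPM). The same held for the endothelial, myoblast, MHC class II and neutrophil sums. S3 was not the lowest for the eosinophil, lymphocyte, mast cell, muscle fibre, erythroid and proliferation sums.

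Other genes of the same cells and pathways went in both directions. Of 20 other macrophage genes, 16 were tested. Of these, 3 rose and 6 fell in mdx_IL5Tg against mdx, against 10.1% and 11.5% of all tested genes. The receptors Fcgr1 and Msr1 fell by 2.24 and 3.23 on the log2 scale in that comparison (edgeR adjusted p = 0.0049 and 0.0052), and the receptors Cd14, Siglec1 and Stab1 fell as well. The genes that rose were Adgre1, which encodes the F4/80 antigen that mouse eosinophils also carry, Itgam and Spi1, the gene of PU.1. Adgre1 averaged 2244 ± 192 CPM in mdx_IL5Tg, 1200.1 ± 124 CPM in mdx and 1592 ± 185 CPM in IL5Tg (SD, n = 3 each), a rise of 0.90 against mdx (SE 0.15, edgeR adjusted p = 0.0025). Of the same 16, 4 rose and 0 fell in mdx_IL5Tg against IL5Tg, against 4.35% and 2.87% of all genes. In mdx against IL5Tg 9 rose and 0 fell, against 11.8% and 8.96%.

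Of 20 genes of the Trem2 pathway and the phagosome, 4 rose and 6 fell in mdx_IL5Tg against mdx, against 10.1% and 11.5% of all genes. In mdx_IL5Tg against IL5Tg 8 rose and 0 fell, against 4.35% and 2.87%. In mdx against IL5Tg 12 rose and 0 fell, against 11.8% and 8.96%. Trem2 had 2.09, 3.32 and 0.940 CPM in mdx_IL5Tg, 15.4, 12.2 and 5.69 CPM in mdx, and 0.160, 0.324 and 0.0745 CPM in IL5Tg libraries. It fell by 2.39 in mdx_IL5Tg against mdx (edgeR adjusted p = 0.0084), while Tyrobp, the adaptor through which Trem2 and many other receptors signal, rose by 0.79 (edgeR adjusted p = 0.0044). Among lysosomal proteases, Ctss fell by 2.72, Lgmn by 1.75 and Ctsb by 1.54 in mdx_IL5Tg against mdx (edgeR adjusted p = 0.0092, 0.0037 and 0.0064), whereas Ctsd was among the genes that rose. Itgax, the gene of CD11c, a marker against which the cells were sorted, averaged 231 CPM in mdx_IL5Tg, 120.4 CPM in mdx and 47.0 CPM in IL5Tg. It rose in all 3 comparisons, by 0.94 against mdx and 2.30 against IL5Tg for mdx_IL5Tg, and by 1.36 for mdx against IL5Tg (edgeR adjusted p = 0.0045, 0.00035 and 0.00058). That order, with mdx_IL5Tg highest, differed from the order of the C1q chains.

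Of 14 other monocyte genes, 5 fell in mdx_IL5Tg against mdx (among them Ccr2, F13a1, Fn1 and Vcan) and 2 rose (Nr4a1 and Spn). These were 35.7% and 14.3% of the list, against 11.5% and 10.1% of all genes. In mdx_IL5Tg against IL5Tg, 0 of the 14 rose and 1 fell (Ifitm6), against 4.35% and 2.87% of all genes. In mdx against IL5Tg 6 rose and 2 fell, against 11.8% and 8.96%. F13a1, a coagulation factor subunit of monocytes and macrophages, averaged 6.41 CPM in mdx_IL5Tg, 37.4 CPM in mdx and 3.18 CPM in IL5Tg, a fall of 2.55 in mdx_IL5Tg against mdx (edgeR adjusted p = 0.0064). Spn, the leukocyte sialoglycoprotein CD43, averaged 148 CPM in mdx_IL5Tg, 73.2 CPM in mdx and 156 CPM in IL5Tg, a rise of 1.01 in mdx_IL5Tg against mdx (edgeR adjusted p = 0.0033). Of 17 tested ligands and partners of the member receptors, 6 fell (35.3%) and 2 rose (11.8%) in mdx_IL5Tg against mdx. Over all genes 11.5% fell and 10.1% rose. In mdx_IL5Tg against IL5Tg 1 rose (5.88%) and 0 fell, against 4.35% and 2.87% of all genes. In mdx against IL5Tg 4 rose (23.5%) and 0 fell, against 11.8% and 8.96%. The shares that rose in the first 2 comparisons were close to those of all genes. Csf1, the ligand of Csf1r, averaged 272 CPM in mdx_IL5Tg, 465 CPM in mdx and 281 CPM in IL5Tg, and fell by 0.77 in mdx_IL5Tg against mdx (edgeR adjusted p = 0.01). C1s1, a protease that C1q activates with C1r, fell by 1.17, and C4b, its substrate, by 2.22 (edgeR adjusted p = 0.015 and 0.005). Gas6, the ligand of Axl and Mertk, had a log2 fold change of -1.10 that did not pass (edgeR adjusted p = 0.055), and Pros1, their other ligand, fell by 0.86 (edgeR adjusted p = 0.036).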

How the data were processed

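The deposited table held RSEM estimated counts (expected counts) per gene for 9 libraries. The submitters' processing notes name build mm10 and, as tools, RSEM 1.3.0, STAR 2.5.3, limma and cutadapt 2.10. Which annotation and which strand setting were used is not given in the sources used here. Of all values, 6.03% were not whole, and estimated counts were rounded here before testing. Columns name a group and an S number that no label gives, so libraries were tied to groups only.

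Genes were kept with filterByExpr (minimum count 10). edgeR 4.0.16 in R 4.3.3 fitted all 9 libraries with TMM scaling and a robust quasi-likelihood model with group as the only term, p-values were adjusted over all tested genes by the Benjamini-Hochberg method, and 0.05 was the threshold. CPM used TMM-scaled totals. The SE given with a log2 fold change was derived as its absolute value divided by the square root of the F statistic of the edgeR test. The test was checked on simulated data. Alternatives were RLE size factors, library totals, a stricter filter of 50 counts in at least 3 libraries, no filter at all, DESeq2 1.42.0, limma 3.58.1 voom, fits of only the groups compared, and leaving out each library. Exon lengths, positions and overlaps came from GENCODE M21, and promoter windows from RefSeq. Besides Csf1r, Folr2 and Ms4a6c, other members shared exonic bases with a neighbour. Among them, Maf shared 440 with Gm15655 and Cd9 218 with Gm26728, both on the opposite strand, and Spp1 309 with Gm42793 on the same strand.

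Members and lists were chosen with earlier results of these data known. The naming rule took members called in any comparison, or among the 10 highest by level, and for each other list up to 4 genes with the smallest p in a comparison; values of Cd163, Gas6 and Pros1 were given outside it, chosen after they were seen. The depth of 26752780 to 58368283 counts leaves members with fewer than about 10 counts in a group imprecise. Some genes of these lists are not reported here.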

Additional observations from a re-analysis of the deposited data

How the results depend on the processing

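Of 17 alternatives, 1, leaving out IL5Tg S7 and mdx S5 together, was added after seeing the files. No paired analysis was possible because the columns carry no replicate number that the labels give. The number of members lower in mdx_IL5Tg against mdx was 24 (11.5% of all genes) and became 14 without a filter on low counts (7.3%), 26 by library totals (25.2%) and 25 with DESeq2 (14.3%). It ran from 8 to 24 as single libraries were left out, while the share of all genes ran from 2.63% to 12.3%. The number higher was 4 (10.1% of all genes). It became 2 when scaled by library totals (4.7%) and 7 without the added pair of libraries (14.1%). Without single libraries it was 3 to 5 (6.7% to 13%). In mdx_IL5Tg against IL5Tg, 9 members were higher (4.35% of all genes), 14 with DESeq2 (7.6%), 12 with only the groups compared (7.5%) and 5 with limma voom (4.68%), and 1 to 13 without single libraries (0.662% to 9.4%). The 1 lower member (2.87% of all genes) became 0 without a filter (2.8%) and 0 to 1 without single libraries (0.0123% to 6.55%). In mdx against IL5Tg, the 2 lower members (8.96% of all genes) became 4 without the added pair of libraries (7.82%). They became 2 to 4 without single libraries (6.1% to 11.9%). The 23 higher (11.8% of all genes) became 25 with DESeq2 (14%) and by library totals (15.2%). Without single libraries they became 19 to 24 (5.71% to 11.7%). Calls that held under all alternatives numbered 6 of 24 lower and 2 of 4 higher in mdx_IL5Tg against mdx, 1 of 9 higher and 0 of 1 lower in mdx_IL5Tg against IL5Tg, and 18 of 23 higher and 2 of 2 lower in mdx against IL5Tg.

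Scaling by library totals moved the median log2 fold change of all genes from -0.13 to -0.46 in mdx_IL5Tg against mdx, from -0.05 to -0.27 in mdx_IL5Tg against IL5Tg and from 0.01 to 0.12 in mdx against IL5Tg. Only values that had not passed the test changed sign. Syk in mdx_IL5Tg against mdx was -0.09 by library totals, and Lipa there ran from -0.46 to 0.18 without single libraries. Maf in mdx_IL5Tg against IL5Tg was -0.19 by library totals, -0.02 with the stricter filter, -0.06 without the added pair, and -0.03 to 0.27 without single libraries. Mertk there was 0.02 without the added pair and -0.32 to 0.25 without single libraries. Timd4 there, on 4 and 6 counts, ran from -1.54 to 3.42 without single libraries, and was also 3.42 without the added pair. The causes were not tested. Members with few counts are limited by depth, among them Timd4, and Aif1, Cx3cr1 and Ms4a7 in IL5Tg.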

Other observations

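Members differed in how evenly the 3 mdx libraries carried them, a pattern seen after the values were examined. In mdx S5, Cd68 was at 15.4% of its level in mdx S4, Cx3cr1 at 22.5%, Ms4a6c at 24.7%, Ms4a4c at 28.4%, Clec7a at 30.3% and Fabp5 at 32.5%. In the same pair of libraries Maf was at 97.5%, C1qa at 97.4%, Folr2 at 101%, Cd163 at 120%, Pf4 at 163% and Plac8 at 188%. C1qb at 68.1%, C1qc at 68.5% and Mrc1 at 63.0% lay between. C1qa, Maf and Folr2 were thus nearly level between these libraries where Cd68, Cx3cr1, Ms4a4c and Ms4a6c were not. Against mdx S6, Cd68 in mdx S5 was at 29.0% and C1qa at 190.1%. With 1 library on each side there is no test, and the low mitochondrial share of mdx S5 stands beside these values.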
